A study of Glycine max with 14 samples.

Results

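The chalcone synthase (CHS) family of soybean was followed here as 6 loci: CHS7 (Glyma01g43880), CHS8 (Glyma11g01350), CHS2 (Glyma05g28610), CHS6 (Glyma09g08780) and the copies Glyma08g11530 and Glyma08g11620 of the gene cluster on chromosome 8. Their members are all gene models of these loci in the deposited table, which gave 7 of its 69425 gene models. CHS8 had 2 gene models and each other locus had 1. CHS7 lies on chromosome 1, CHS8 on chromosome 11, CHS2 on chromosome 5 and CHS6 on chromosome 9. Their identity rests on the locus names of the Glyma1 gene models, and no CHS number is given here to the copies of chromosome 8.

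The levels come from RNA-Seq of dissected seed coats of greenhouse-grown plants, in 14 libraries. The black-seeded line RM30-R* (genotype i, R*, T; a revertant that carries a CACTA transposon, TgmR*, in an intron of the R gene) and the brown-seeded line RM38-r (genotype i, r, T; a deletion of a C in an exon of R) gave 7 libraries each. Both are homozygous isolines of the cultivar Clark and share the recessive i and the dominant T allele. Seeds were staged by fresh weight in order as 100–200 mg, 200–300 mg, 300–400 mg and 400–500 mg, all green, and as desiccating seeds of 300–400 mg, with 2 libraries per line at 300–400 mg and at 400–500 mg and 1 library per line at the other 3 stages. Values are RPKM, read counts scaled to gene model length and to the mapped total of the library. The label of seed coat was set against marker gene models chosen from general knowledge, whose IDs the sources used here do not name. The 1 model meant for the seed coat was at 0 RPKM in 12 of 14 libraries and reached at most 0.0219 RPKM, so the label is not backed by it. Of 11 models meant for storage proteins of the embryo 10 were in the table, 8 to 10 of them were above 1 RPKM, and their summed level was 45.0 RPKM in the black and 78.2 RPKM in the brown line at 100–200 mg. Later it was 325 to 950 RPKM in the black and 178 to 1487 RPKM in the brown line. The seed coat is maternal tissue of several cell layers, and in such bulk samples fewer cells of a type and less RNA per cell cannot be told apart.

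Chalcone synthase is the enzyme that condenses p-coumaroyl-CoA with malonyl-CoA to give chalcone, and thereby opens the pathway to flavonols, anthocyanins and proanthocyanidins. Soybean holds a family of near-identical CHS genes, several of them in a cluster on chromosome 8. The dominant alleles of the I locus lie in this cluster, produce small RNAs and lower CHS transcripts in the seed coat, which leaves it yellow. Lines with the recessive i allele, like both lines here, keep pigmented seed coats. The R locus encodes an R2R3 MYB transcription factor and the T locus the flavonoid 3′-hydroxylase.

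CHS7 and CHS8 together supplied most of the signal of the 6 loci, from 81.6% in R112 to 99.1% in R43. CHS7 measured 509 RPKM in the RM30-R* library R42 and 526 RPKM in the RM38-r library R43 at 100–200 mg. At 200–300 mg it measured 212 RPKM in RM30-R* (R122) and 121 RPKM in RM38-r (R124). The levels at 300–400 mg were 211 and 193 RPKM in RM30-R* (R123 and R154) and 41.1 and 44.3 RPKM in RM38-r (R125 and R156). The lines were therefore alike at the earliest stage and lay apart, with no overlap, at 300–400 mg. By 400–500 mg CHS7 measured 122.96 and 107.2 RPKM in RM30-R* (R111 and R155), against 44.4 and 110.9 RPKM in RM38-r (R113 and R157), so that the lines overlapped. In desiccating seed coats it measured 19.5 RPKM in RM30-R* (R110) and 20.8 RPKM in RM38-r (R112). These values rest on 1697 to 80024 reads per library, and the 95% Wilson interval of the lowest one was 18.6 to 20.4 RPKM. Such intervals cover counting error only.

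Ordered by level, CHS7 was highest at 100–200 mg, in RM30-R* and RM38-r alike, with 1 library each. RM30-R* at 200–300 mg (212 RPKM, 1 library) came next and lay within the spread of RM30-R* at 300–400 mg (202 ± 12.4 RPKM, SD, n = 2). RM38-r at 200–300 mg (121 RPKM, 1 library) lay within the spread of RM30-R* at 400–500 mg (115 ± 11.2 RPKM, SD, n = 2). RM38-r at 400–500 mg followed with 77.7 ± 47.0 RPKM (SD, n = 2), a spread that covers the neighbour on either side. RM38-r at 300–400 mg (42.7 ± 2.29 RPKM, SD, n = 2) stood above the desiccating seed coats of both lines. CHS7 ranked 103 and 77 by RPKM among all 69425 gene models in R42 and R43, and 6446 and 5982 in the desiccating libraries R110 and R112.

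CHS8 followed the same course at a lower level. It measured 382 RPKM in the black and 396 RPKM in the brown line at 100–200 mg, and 135 RPKM in the black and 76.3 RPKM in the brown line at 200–300 mg. Levels at 300–400 mg were 138.7 and 123.8 RPKM in RM30-R* (131 ± 10.6, SD, n = 2), against 25.6 and 28.3 RPKM in RM38-r (27.0 ± 1.89, SD, n = 2). Those at 400–500 mg were 75.7 and 68.1 RPKM in RM30-R*, against 28.5 and 71.2 RPKM in RM38-r. Like CHS7, CHS8 had its lowest levels in desiccating seed coats, with 13.9 RPKM in the black and 14.9 RPKM in the brown line. The second gene model of CHS8, Glyma11g01350.2, differs in length (1585 nt, against 1725 nt for Glyma11g01350.1) and its RPKM was 1.02 to 1.04 times that of the first model in every library. The models of this locus share reads, so their values are not separate measurements, and Glyma11g01350.1 stands for the locus below.

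**Figure D1:**
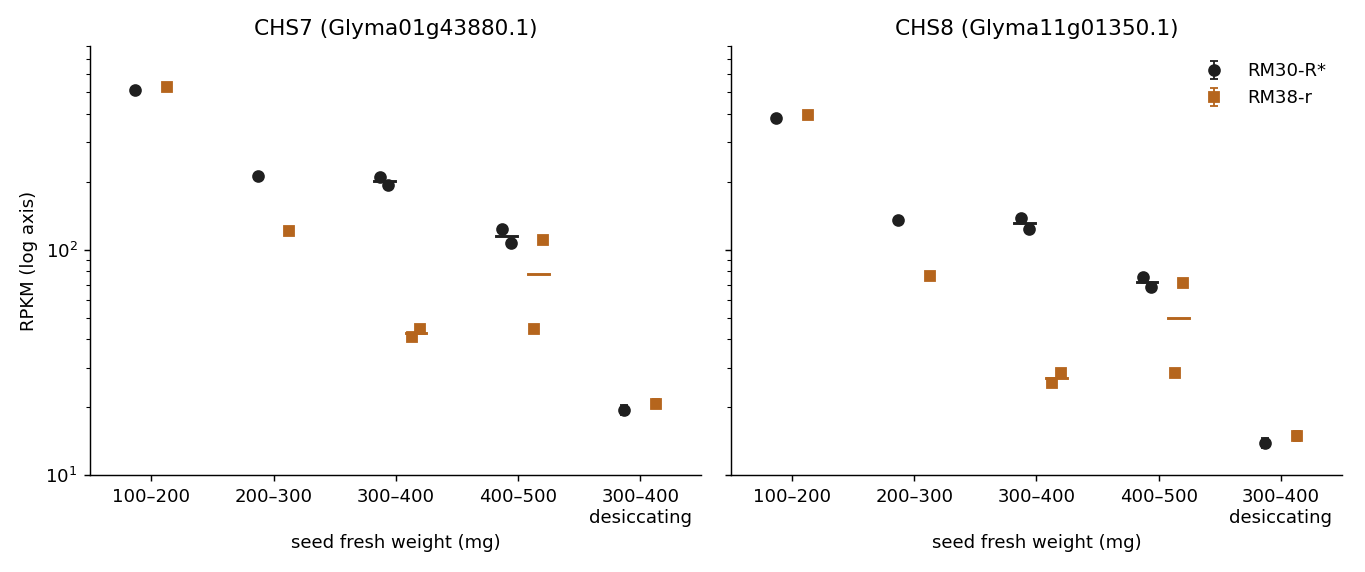
RPKM of CHS7 (left) and CHS8 (right) on a log axis against the stage of seed development, RM30-R* as black circles and RM38-r as brown squares. Each point is 1 library, bars are 95% Wilson intervals of the read count, mostly smaller than the point, and a short line is the mean of 2 libraries. Both genes are near 500 and 400 RPKM in both lines at 100–200 mg, lie apart by line at 300–400 mg and meet again in desiccating seed coats. At 300–400 mg 41.6% of all gene models tested likewise had both RM30-R* libraries above both RM38-r libraries.

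The reads of these genes were counted at every gene model to which they aligned with up to 3 mismatches, so near-identical copies share reads and a level per copy is not independent of the others. A read counted at both copies of a pair draws their counts together, and the number of such reads was not tested. With this limit, the family total was taken as the sum of RPKM over the 6 loci, which are fewer than the CHS genes the paper counts. It was 900 RPKM in the black and 930 RPKM in the brown line at 100–200 mg, and 39.3 RPKM in the black and 43.6 RPKM in the brown line in desiccating seed coats. The first stage was thus 22.9 times the last in RM30-R* and 21.3 times the last in RM38-r. The total at 300–400 mg was 353 and 321 RPKM in RM30-R*, against 70.4 and 87.7 RPKM in RM38-r. By 400–500 mg it was 205 and 185 RPKM in RM30-R*, against 78.3 and 188 RPKM in RM38-r. Between these last stages the mean total of RM30-R* changed by a factor of 0.578 and that of RM38-r by a factor of 1.68, with R157 well above R113.

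CHS7 held 47.6% to 60.1% of the family total over the 14 libraries (median 58.2%), and CHS8 held 32.3% to 42.6% (median 37.2%). CHS2 held 0.325% to 5.68% (median 1.66%) and CHS6 held 0.0359% to 0.570% (median 0.121%). Glyma08g11530 held 0.0960% to 5.93% (median 0.716%) and Glyma08g11620 held 0.0947% to 7.06% (median 0.814%). With the first gene model counted for each locus, the order of CHS7 above CHS8 above every other copy was the same in all 14 libraries. With both gene models of CHS8 summed, which counts its reads at each, the order of the medians turned, with 42.2% for CHS7 and 54.7% for CHS8. The shares add to 100% by construction, so they are given as a description with no test.

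The part of the total outside CHS7 and CHS8 varied most. At 100–200 mg these other 4 loci held 0.999% in RM30-R* and 0.879% in RM38-r. Their share at 300–400 mg was 0.982% and 1.36% in RM30-R* and 5.26% and 17.2% in RM38-r, and at 400–500 mg 2.95% and 5.25% in RM30-R* and 6.93% and 3.04% in RM38-r. In desiccating seed coats they held 15.0% in RM30-R* and 18.4% in RM38-r. The highest shares belonged to R112, R156 and R110. In R110 and R112 the family total was at its lowest, and the levels of both copies of chromosome 8 were within the range of the other libraries, while CHS2 was at its lowest in R110. In R156 those 3 loci were themselves at their highest level. The chromosome 8 pair together held 13.0% in R112, 11.1% in R156 and 9.67% in R110, against 0.191% in R123, the lowest.

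**Figure D2:**
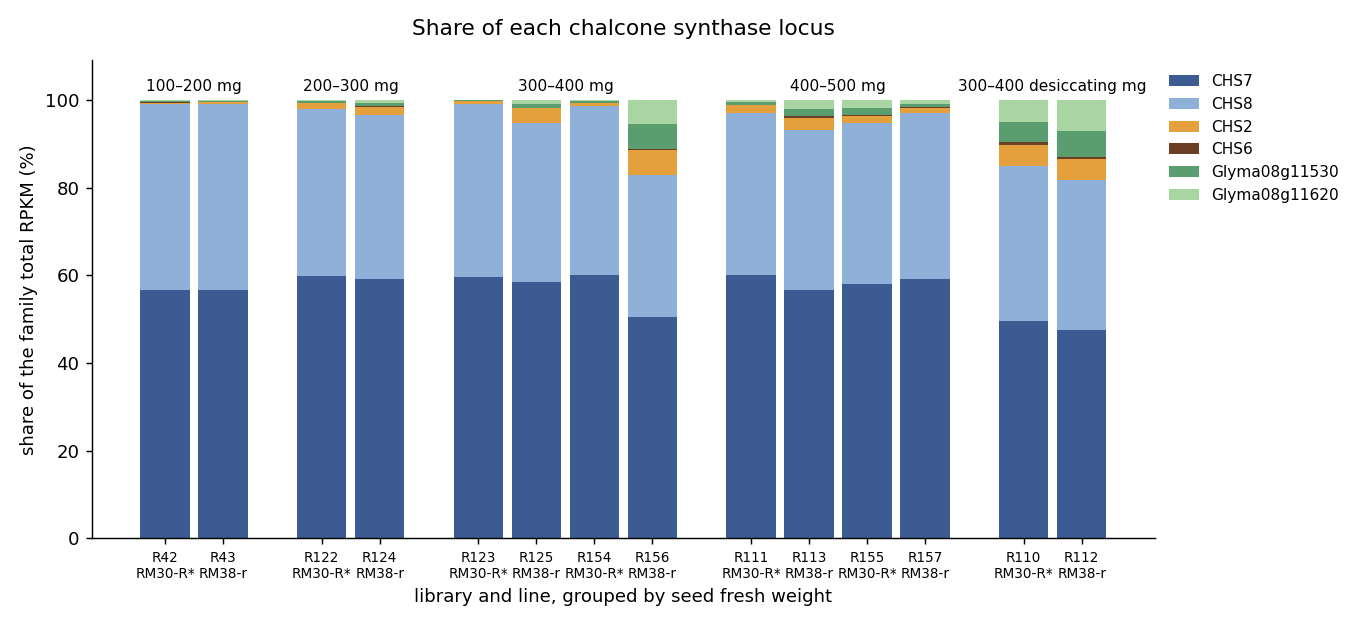
Share of the family total RPKM (percent, bars stacked to 100) held by each of the 6 loci in each of the 14 libraries, grouped by stage. CHS7 and CHS8 make up 99.0% and 99.1% in the 100–200 mg libraries R42 and R43, 82.8% in R156, and 85.0% and 81.6% in the desiccating libraries R110 and R112.

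The ratio of CHS8 to CHS7 was highest at 100–200 mg and was close between the lines at each stage, a description with no test. It was 0.750 in RM30-R* and 0.752 in RM38-r at 100–200 mg. In the 10 libraries of 200–500 mg with green seeds it was 0.616 to 0.659 (median 0.638). In desiccating seed coats it was 0.716 in both lines. The 95% counting intervals at 100–200 mg, 0.743 to 0.758 in RM30-R* and 0.744 to 0.760 in RM38-r, lay above those of all 10 later green libraries, of which the highest upper bound was 0.675. The intervals of the desiccating libraries were wide, 0.667 to 0.768 in RM30-R* and 0.669 to 0.767 in RM38-r, and their lower bounds fell under that highest upper bound. At 100–200 mg and in desiccating seed coats there was 1 library per line, so the agreement between the lines is the only repeat of these ratios. The ratio at 300–400 mg was 0.659 and 0.641 in RM30-R* and 0.623 and 0.638 in RM38-r, while the levels of both genes differed several-fold between the lines. Reads counted at both genes draw their counts together, and how far they hold this ratio steady was not tested. The intervals take the reads of both genes as independent.

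**Figure D3:**
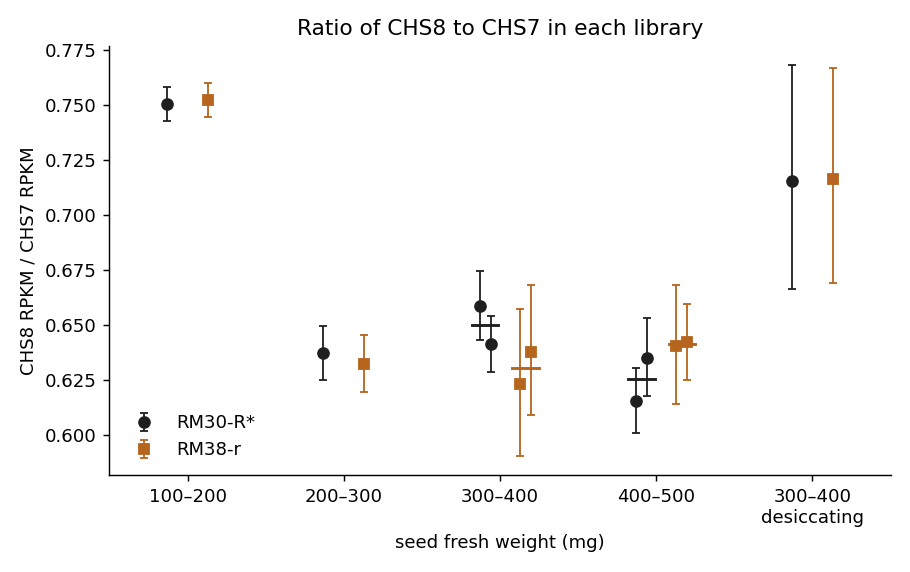
Ratio of CHS8 to CHS7 RPKM in each library against the stage, RM30-R* as black circles and RM38-r as brown squares. Bars are 95% intervals from the read counts (counting error only). They take the reads of both genes as independent, although reads may be shared. Short lines are means of 2 libraries, and the axis does not start at 0. The ratio is 0.750 and 0.752 at 100–200 mg, 0.616 to 0.659 in the 10 libraries of 200–500 mg, and 0.716 in both desiccating libraries.

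The other 4 loci stayed under 5 RPKM in all 14 libraries. CHS2, CHS6 and the chromosome 8 pair differed in their course. CHS2 was the steadiest of the 6 loci: its highest level was 2.63 times its lowest, against 27.1 times for CHS7 and 28.4 times for CHS8. It measured 2.93 RPKM in the black and 3.85 RPKM in the brown line at 100–200 mg, and 4.49 RPKM in the black and 4.11 RPKM in the brown line at 200–300 mg. CHS2 at 300–400 mg measured 2.66 and 2.07 RPKM in RM30-R*, against 2.32 and 4.98 RPKM in RM38-r, where the high value is that of R156. Its values at 400–500 mg were 3.58 and 2.92 RPKM in RM30-R*, against 2.26 and 2.35 RPKM in RM38-r, without overlap. The same order of libraries held for 17.4% of all gene models tested at this stage, and CHS2 was not called in the test below. In desiccating seed coats it measured 1.89 RPKM in the black and 2.11 RPKM in the brown line. Relative to CHS7, CHS2 made up 0.575% in RM30-R* and 0.731% in RM38-r at 100–200 mg, and 9.73% in RM30-R* and 10.1% in RM38-r in desiccating seed coats.

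CHS6 was the lowest copy. It measured 0.844 RPKM in RM30-R*, against 0.706 RPKM (103 reads) in RM38-r, at 100–200 mg, and 0.0928 to 0.337 RPKM (7 to 52 reads) in the other 12 libraries. The 95% Wilson intervals at 100–200 mg, from 0.582 RPKM upwards, lay above those of the other 12 libraries, of which the highest upper bound was 0.479 RPKM. Relative to CHS7, CHS6 made up 0.166% in RM30-R* and 0.134% in RM38-r at 100–200 mg, against a median of 0.206% over all libraries. The part of shared reads in the level of CHS6 was not tested. Among these 12 libraries the interval of R125, with an upper bound of 0.192 RPKM, lay below that of R156, with a lower bound of 0.238 RPKM. Every value lay above the limit of 3 reads, which is 0.0174 to 0.0422 RPKM for this gene model.

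The copies on chromosome 8 moved together. Glyma08g11530 measured 2.50 RPKM in the black and 1.90 RPKM in the brown line at 100–200 mg, and 1.38 RPKM in the black and 1.36 RPKM in the brown line at 200–300 mg. At 300–400 mg it measured 0.339 and 1.03 RPKM in RM30-R* (R123 and R154) and 0.626 and 4.92 RPKM in RM38-r (R125 and R156). At 400–500 mg it measured 1.15 and 3.09 RPKM in RM30-R* (R111 and R155) and 1.38 and 1.44 RPKM in RM38-r (R113 and R157). The highest and the lowest value of the series thus both belonged to 300–400 mg, and the RM38-r libraries of that stage differed by more than the line means did. In desiccating seed coats it measured 1.81 RPKM in the black and 2.59 RPKM in the brown line.

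Glyma08g11620 measured 2.72 RPKM in the black and 1.72 RPKM in the brown line at 100–200 mg, and 1.30 RPKM in the black and 1.45 RPKM in the brown line at 200–300 mg. At 300–400 mg it measured 0.334 and 1.07 RPKM in RM30-R*, against 0.668 and 4.81 RPKM in RM38-r, and at 400–500 mg 1.17 and 3.43 RPKM in RM30-R*, against 1.56 and 1.72 RPKM in RM38-r. Desiccating seed coats had 1.99 RPKM in the black and 3.08 RPKM in the brown line. The ratio of Glyma08g11530 to Glyma08g11620 stayed between 0.834 and 1.10 in the 14 libraries while their levels spanned 14.5-fold and 14.4-fold. How far reads counted at both copies hold this ratio steady was not tested. R156 was the highest library and R123 the lowest for both.

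**Figure D4:**
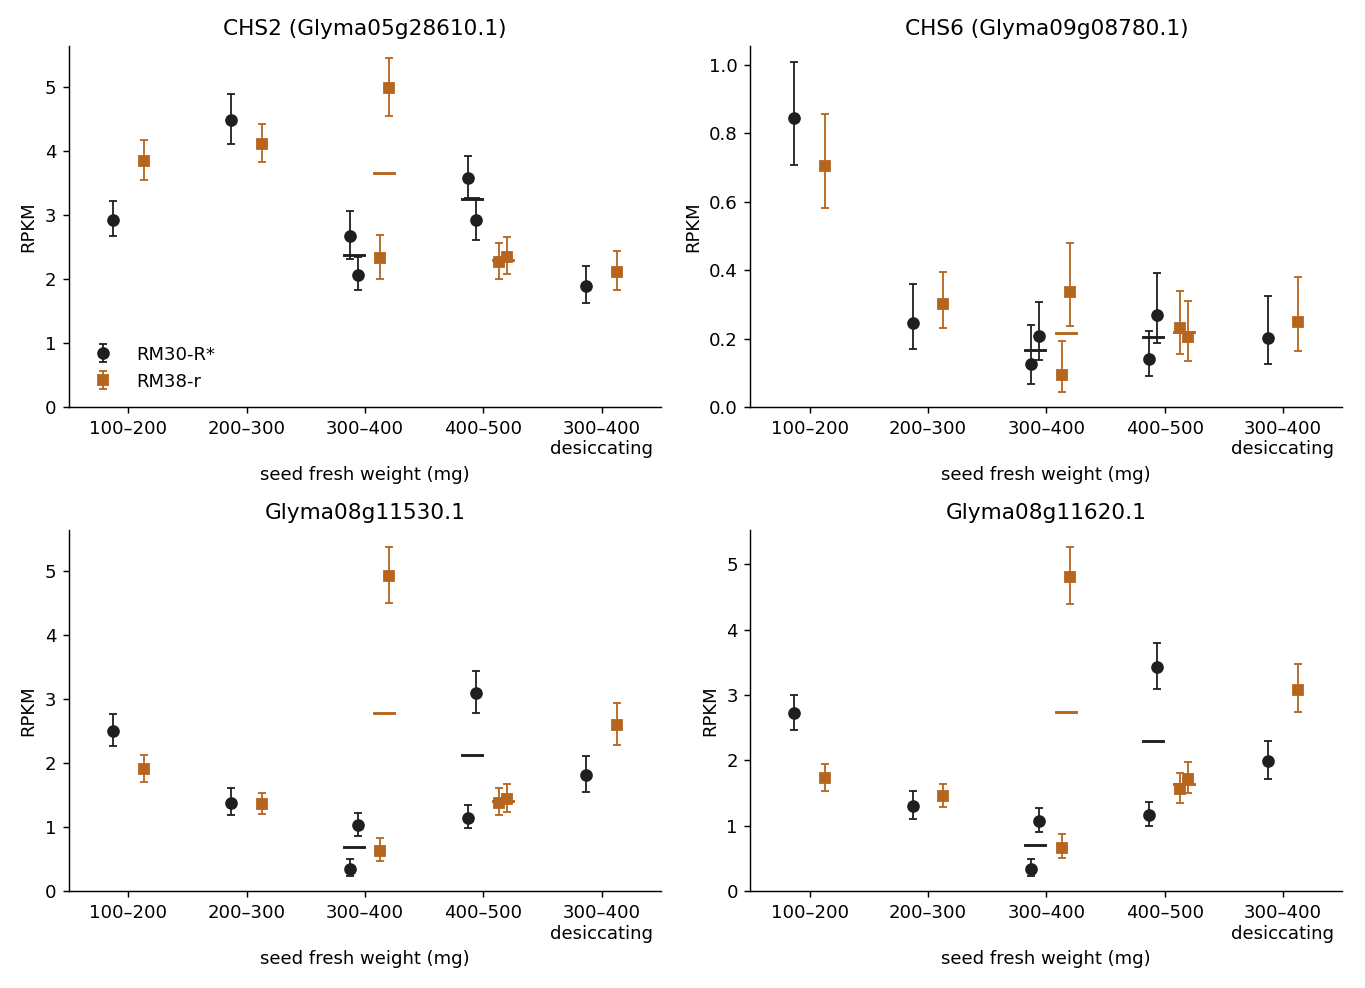
RPKM of CHS2, CHS6, Glyma08g11530 and Glyma08g11620 against the stage, with axes from 0 that differ between panels. Points, bars and short lines are as for CHS7 and CHS8: 1 library, its 95% Wilson interval and the mean of 2 libraries. CHS6 is high at 100–200 mg alone, and the chromosome 8 copies reach 4.92 and 4.81 RPKM in the RM38-r library R156.

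The likeness of a gene model to CHS7 was measured as the SD, over the 14 libraries, of the log2 ratio of its RPKM to that of CHS7, each with 0.5 added, where 0 would be a parallel course. Among 15338 first gene models of a locus with a mean of at least 5 RPKM the median SD was 1.50. CHS8 was the closest of all at 0.10. Reads counted at both CHS7 and CHS8 draw their courses together, and the number of such reads was not tested. The 5 nearest models of other loci were Glyma02g05470.1 (0.23), Glyma01g39590.1 (0.23), Glyma02g05450.1 (0.26), Glyma11g05660.1 (0.27) and Glyma19g41250.1 (0.29). Glyma02g05450 is F3H, the flavanone 3-hydroxylase that acts later in the same pathway, and the sources used here give no name for the other 4. F3H measured 327 RPKM in the black and 340 RPKM in the brown line at 100–200 mg, 123.9 ± 6.65 RPKM in the black line against 31.1 ± 6.58 RPKM in the brown line at 300–400 mg (SD, n = 2 each), and 20.3 RPKM in the black and 14.5 RPKM in the brown line in desiccating seed coats.

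The same measure was taken from Glyma08g11620, a choice made after seeing the data, among 28202 first gene models with a mean of at least 1 RPKM. The nearest was Glyma08g11530 (0.094), followed by Glyma08g11630.1 (0.099), Glyma08g11610.1 (0.16), Glyma08g11520.1 (0.19) and Glyma08g11650.1 (0.24), all with locus numbers beside the pair on chromosome 8. Other loci of the same stretch lay further off, such as Glyma08g11550.1 (0.61), Glyma08g11590.1 (0.65), Glyma08g11640.1 (0.68) and Glyma08g11660.1 (1.27). The next locus elsewhere was Glyma07g30800.1 at 0.36, and the median was 0.76. CHS2 lay at 0.72, CHS7 at 1.80 (rank 27754 of 28202) and CHS8 at 1.81 (rank 27760). The 4 neighbouring loci Glyma08g11630, Glyma08g11610, Glyma08g11520 and Glyma08g11650 were also highest in R156, at 4.49 to 5.72 RPKM, and lowest in R123, at 0.421 to 0.823 RPKM. Their first gene models summed to 20.1 RPKM in R156, 10.6 RPKM in R112, 7.23 RPKM in R110 and 2.18 RPKM in R123. These loci are not part of the family total. They are no members by the locus list, the sources used here give them no name, and they may share reads with the pair, which was not tested. Reads counted at both Glyma08g11530 and Glyma08g11620 also draw the courses of this pair together, and their number was not tested.

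To ask at which stage the lines differed, each line and stage was fitted with limma on log2(RPKM + 0.5) in the 8 libraries of 300–400 mg and 400–500 mg, and p-values were adjusted over 40334 gene models by the Benjamini-Hochberg method. All gene models but that of CHS6 passed the minimum of 0.5 RPKM in at least 2 of these libraries, 6 of 7. At 300–400 mg CHS7 had a log2 fold change of 2.23 (SE 0.39, 95% interval 1.35 to 3.11) and CHS8 one of 2.26 (SE 0.38, 95% interval 1.40 to 3.13), RM30-R* over RM38-r. Neither passed the threshold of 0.05, with adjusted p = 0.0891 for CHS7 and adjusted p = 0.0866 for CHS8. Of the 6 gene models tested 0 were called and 3, those of CHS7 and CHS8, had an unadjusted p under 0.05, beside 12 of 40334 called in the whole table, or 0.0298%, and 4737 with an unadjusted p under 0.05, or 11.7%. The fold changes of CHS7 and CHS8 exceeded those of 99.5% and 99.6% of all gene models tested.

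The other loci had lower values in the black line at this stage, and none passed the test. Glyma08g11530 had a log2 fold change of -1.13 (SE 0.67, adjusted p = 0.501), Glyma08g11620 one of -1.12 (SE 0.67, adjusted p = 0.502) and CHS2 one of -0.46 (SE 0.35, adjusted p = 0.535). These negative values rested on R156. Without it they were 0.01 for Glyma08g11530, -0.03 for Glyma08g11620 and 0.02 for CHS2. In the RM38-r library R125 the 75th percentile of RPKM was 4.73, against 6.50 to 7.87 in the other 13, and the median log2 fold change of all gene models at 300–400 mg was 0.33, which was 0.03 once libraries were rescaled to equal 75th percentiles. On that scale CHS7 had 1.88 and CHS8 had 1.92. Both RM30-R* libraries lay above both RM38-r libraries for CHS7 and CHS8, as they did for 41.6% of all gene models. The summed level of the storage protein models was 771 and 325 RPKM in RM30-R* (R123 and R154), against 356 and 856 RPKM in RM38-r (R125 and R156), and its part in these differences was not tested.

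The calls of CHS7 and CHS8 at 300–400 mg depended on which libraries set the spread. Adjusted p was 0.0212 for CHS7 and 0.0176 for CHS8 without R113, 0.0195 for CHS7 and 0.0185 for CHS8 without R157, and 0.0476 for CHS8 without R155, all of them libraries of 400–500 mg. The whole table had 0.451% called without R113, 0.431% without R157 and 0.453% without R155. It had 0% called without R123, where adjusted p was 0.473 for CHS7 and 0.464 for CHS8. With a replicate block, which joins libraries of 1 number series although no label says that such a series is a batch, adjusted p was 0.0288 for CHS7 and 0.0259 for CHS8, in a fit that called 895 of 40334 gene models, or 2.22%. The log2 fold change itself stayed between 1.88 and 2.29 for CHS7 and between 1.92 and 2.34 for CHS8 under all settings tried.

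At 400–500 mg the differences were smaller. CHS7 had a log2 fold change of 0.70 (SE 0.39, 95% interval -0.18 to 1.58) and CHS8 one of 0.67 (SE 0.38, 95% interval -0.20 to 1.53), RM30-R* over RM38-r. CHS2 had 0.41 (SE 0.35), Glyma08g11530 had 0.35 (SE 0.67) and Glyma08g11620 had 0.26 (SE 0.67). With limma, 0 of the 6 gene models were called and 0 had an unadjusted p under 0.05, beside 0% of the table, in which 141 gene models, or 0.35%, had an unadjusted p under 0.05. R113 lay near the RM38-r libraries of 300–400 mg and R157 at the level of RM30-R*, so the RM38-r libraries differed by more than the line means did. The log2 fold change of CHS7 was 0.05 without R113 and 1.36 without R157, and that of CHS8 was 0.01 without R113 and 1.32 without R157. The positive values of the chromosome 8 copies rested on R155, without which they were -0.21 for Glyma08g11530 and -0.36 for Glyma08g11620. For reference, both RM30-R* libraries lay above both RM38-r libraries for 17.4% of all gene models, and of the 5 loci tested CHS2 was the only one among them.

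The change of the line difference between the stages was tested as an interaction. It was -1.52 for CHS7 (SE 0.55, unadjusted p = 0.0217) and -1.60 for CHS8 (SE 0.54, unadjusted p = 0.0158), and 1.48 for Glyma08g11530 (SE 0.95) and 1.38 for Glyma08g11620 (SE 0.95), each with an adjusted p of 0.9955. In limma, 0 of 6 gene models were called and 3 had an unadjusted p under 0.05, beside 0% of the table, where 1298, or 3.22%, had an unadjusted p under 0.05. The size of the interaction depended on single libraries. It was -2.18 for CHS7 and -2.25 for CHS8 without R113, and -0.87 for CHS7 and -0.94 for CHS8 without R157. For the copies of chromosome 8 it was 2.61 (Glyma08g11530) and 2.48 (Glyma08g11620) without R125, and 0.34 (Glyma08g11530) and 0.29 (Glyma08g11620) without R156. A line difference limited to 300–400 mg was therefore not shown by this test.

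Over all 7 pairs of libraries of matched stage, CHS7 had a log2 fold change of 0.93 (SE 0.32, adjusted p = 0.453) and CHS8 one of 0.93 (SE 0.32, adjusted p = 0.455), and each was higher in RM30-R* in 4 of 7 pairs. CHS2 had -0.06 (SE 0.18, 4 of 7 pairs higher in RM30-R*), CHS6 had -0.04 (SE 0.08, 3 of 7), Glyma08g11530 had -0.23 (SE 0.26, 3 of 7) and Glyma08g11620 had -0.26 (SE 0.26, 2 of 7). In this limma fit 0 of 7 gene models were called and 3 had an unadjusted p under 0.05, beside 0% of 44080 gene models in the table, of which 4016, or 9.11%, had an unadjusted p under 0.05.

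The pathway downstream was followed in 11 genes named in the study: CHI1A, F3H, F3'H, F3'5'H, DFR1, DFR2, ANS2, ANS3, UGT78K1, UGT78K2 and AOMT. Of these, 0 of 11 were called at 300–400 mg, 6 had an unadjusted p under 0.05 and 10 had a value above 0, beside 11.7% with such a p and 85.7% above 0 among all gene models. Their median log2 fold change was 1.64, beside 0.33 for all gene models. F3'H, which hydroxylates the B ring, had 2.45 (SE 0.35, adjusted p = 0.0834), F3H had 1.99 (SE 0.35, adjusted p = 0.0891) and ANS3, an anthocyanidin synthase, had 2.62 (SE 0.43, adjusted p = 0.0841), so these lay beside CHS7 and CHS8. CHI1A, a chalcone isomerase, an enzyme that uses the product of CHS, had 0.19 (SE 0.25, adjusted p = 0.654). The study also names another chalcone isomerase, CHI2, and the anthocyanidin reductases ANR1 and ANR2, which were not followed here. Whether the isomerase step as a whole differed between the lines was therefore not tested here. With the replicate block 5 of 11 were called, beside the 2.22% of the table. Likewise 0 of 11 were called at 400–500 mg, 5 had an unadjusted p under 0.05, beside 0.35% of the table, and the median was 0.90, beside 0.11 for all. There ANS3 had 2.41 (SE 0.43) and F3'5'H, which makes the delphinidin branch, had 2.51 (SE 0.41), both with an adjusted p of 1.00, while CHS7 had 0.70. Whether CHS7 and these genes differed in their line difference was not tested.

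**Figure D5:**
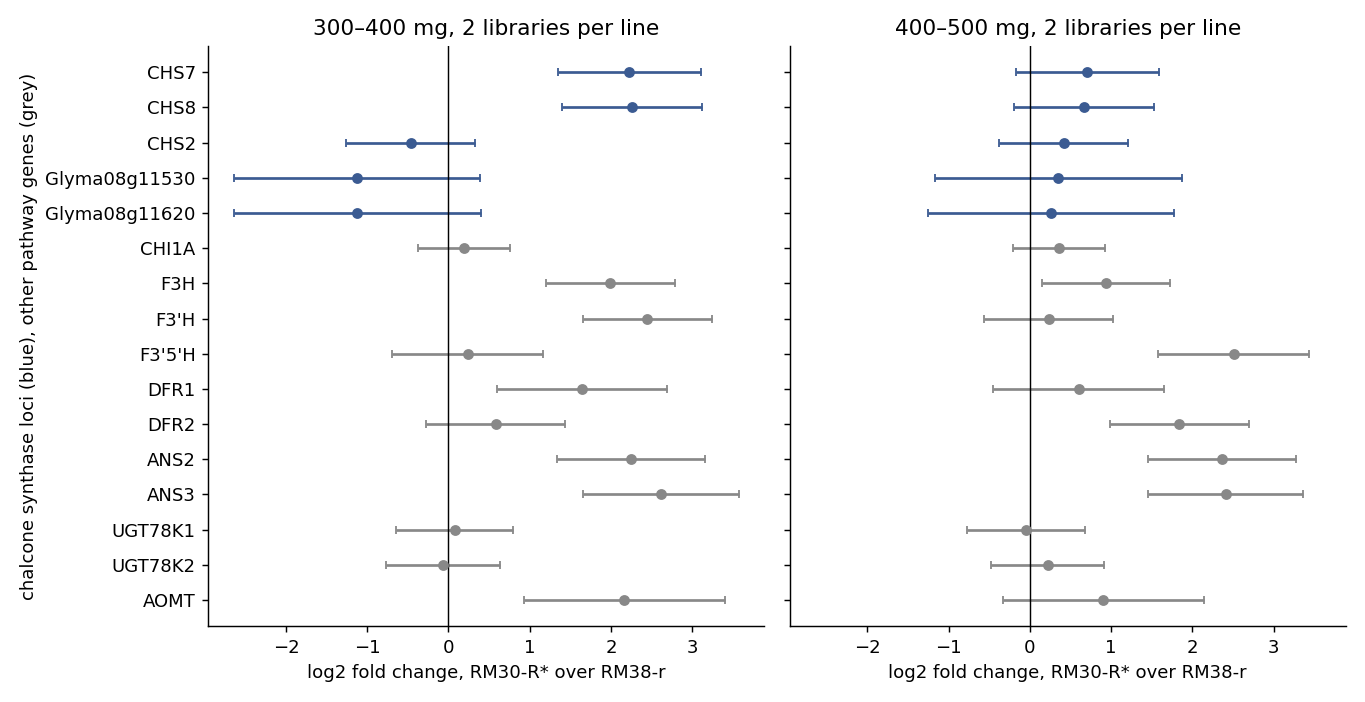
Log2 fold change on the log2(RPKM + 0.5) scale, RM30-R* over RM38-r, of 5 chalcone synthase loci (blue) and 11 other pathway genes (grey) at 300–400 mg (left) and 400–500 mg (right). Points are limma estimates from 2 libraries per line and stage and bars their 95% intervals. CHS7 and CHS8 lie at 2.23 and 2.26 on the left and at 0.70 and 0.67 on the right, and no point passed an adjusted p of 0.05.

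Changes between successive stages were fitted over all 14 libraries with line and stage as terms, over 44080 gene models, which all 7 members passed. From 100–200 mg to 200–300 mg, CHS8 fell by 1.93 on the log2 scale (SE 0.58, adjusted p = 0.0411) and its second gene model fell by 1.93 (SE 0.58, adjusted p = 0.0391). CHS7 had a change of -1.69 (SE 0.58, adjusted p = 0.0686) and did not pass. CHS6 fell by 0.72 on the log2 scale (SE 0.17, adjusted p = 0.0118), but it reached the minimum of 0.5 RPKM in the 100–200 mg libraries alone, so its passing of the filter already required a higher level there. With CHS6 not counted for this reason, 2 of 6 gene models were called lower at the later stage, beside 12.4% of all gene models, and both belong to CHS8 and share reads. The storage protein models summed to 950 RPKM in the black and 1487 RPKM in the brown line at 200–300 mg, above 100–200 mg in both lines, and their part in these changes was not tested.

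The remaining loci were not called at this step. CHS2 had a change of 0.31 (SE 0.34), Glyma08g11530 one of -0.52 (SE 0.67) and Glyma08g11620 one of -0.51 (SE 0.67). The call of CHS8 was lost without R111 (adjusted p = 0.0539) and without R155 (adjusted p = 0.0515), and CHS7 passed once libraries were rescaled (log2 change -1.64, adjusted p = 0.0386). Each of these stages has 1 library per line, so the spread of the fit comes from the replicated stages and from the disagreement of the lines. In the same step F3'H fell by 3.16 (SE 0.59, adjusted p = 0.0031) and CHI1A rose by 1.19 (SE 0.26, adjusted p = 0.0078), the only 2 of the 11 pathway genes called, beside 12.4% of all gene models called lower and 4.27% called higher.

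Between 200–300 mg and 300–400 mg, CHS7 had a change of -0.78 (SE 0.50), CHS8 one of -0.77 (SE 0.50) and CHS2 one of -0.52 (SE 0.29). With limma 0 of 7 gene models were called and 0 had an unadjusted p under 0.05, beside 0% of the table, where 2142, or 4.86%, had an unadjusted p under 0.05. Between 300–400 mg and 400–500 mg 0 of 7 were called and 0 had an unadjusted p under 0.05, beside 0.504% of the table called and 12.2% with an unadjusted p under 0.05. In that step the lines went opposite ways: the mean of CHS7 at 400–500 mg was 0.570 times that at 300–400 mg in RM30-R* and 1.82 times that at 300–400 mg in RM38-r, the difference that the interaction above tests.

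From 400–500 mg to desiccation, CHS7 fell by 2.13 on the log2 scale (SE 0.50, adjusted p = 0.0130), CHS8 fell by 1.95 (SE 0.50, adjusted p = 0.0208) and its second gene model fell by 1.94 (SE 0.50, adjusted p = 0.0202). The desiccating level of CHS7 was 0.169 times the 400–500 mg mean in RM30-R* and 0.267 times in RM38-r. CHS2 had a change of -0.37 (SE 0.29), Glyma08g11530 one of 0.31 (SE 0.58) and Glyma08g11620 one of 0.35 (SE 0.58), none of them called. Thus 3 of 7 gene models, all of CHS7 and CHS8, were called lower, beside 8.76% of all gene models. These calls held under every setting tried, but no setting left out R110 or R112, the only desiccating library of each line. How far the change rests on these libraries was therefore not tested. Of the 11 pathway genes 4 were called, all lower: DFR1, a dihydroflavonol reductase, fell by 3.58 (SE 0.43, adjusted p = 2.03e-04), F3H by 2.05 (SE 0.41, adjusted p = 0.0058), F3'H by 1.88 (SE 0.51, adjusted p = 0.0263) and AOMT, an anthocyanin O-methyltransferase, by 1.85 (SE 0.51, adjusted p = 0.0265).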

How the data were processed

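Seed coat RNA of RM30-R* and RM38-r was sequenced by the authors as single reads of 100 nt and aligned with Bowtie 1 to 78773 Glyma1 gene models, tolerating 3 mismatches. A read with no more than 25 alignments was counted at each of them. The deposited values are RPKM, made by the authors by dividing these counts by gene model length and mapped total. The table held 69425 complete gene models, 1 incomplete line was left out and 0 columns belonged to no sample. Line and stage came from the labels. The study describes the repeat at 400–500 mg as biological. Nothing of the kind was found for 300–400 mg, where p-values measure only the spread between these samples, which may be technical.

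Reads, gene model lengths and mapped totals (49509767 to 100643234 alignments per RM30-R* library and 52510464 to 120239040 per RM38-r library) were recovered from the steps between low RPKM values, a method tested on simulated data. Intervals are 95% Wilson intervals of the reads, and 3 reads were taken as the floor. Ratio intervals treat the reads of both copies as independent.

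Tests were limma (version 3.58.1, R 4.3.3) on log2(RPKM + 0.5), a scale that understates changes of low genes, with a variance trend, two-sided tests, Benjamini-Hochberg adjustment and a minimum of 0.5 RPKM in 2 libraries. The fit was tested on simulated data. Line differences used 8 libraries and a mean per line and stage, the 7 pairs used 14 libraries with the pair as a block (libraries of 1 stage, matched by number series where a stage has 2 per line), and stage changes used 14 libraries with line and stage. Alternatives were pseudocounts of 0.1 and 1, no filter, filtering at 1 RPKM, scaling libraries to the same 75th percentile, no variance trend, the replicate block, and leaving out libraries or pairs. The marker models of the tissue were 1 model meant for the seed coat and 11 meant for storage proteins, listed from general knowledge. The text names all member gene models, 11 pathway genes of the study and the 5 models most like CHS7. Members, lists and tests were chosen with earlier results of these data known. Tables and plots were made in Python (3.11.15) by pandas (2.3.3), numpy (2.4.6) and matplotlib (3.10.9).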

Additional observations from a re-analysis of the deposited data

How the results depend on the processing

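At 300–400 mg 0 member gene models were called. With the replicate block there were 3 (adjusted p = 0.0288 for CHS7 and 0.0259 for CHS8), beside 895 of 40334 in the table against 12 without it, and over the fits that left out 1 library there were 0 to 3, beside 0 to 464 in the table. The block called 5 of 11 pathway genes at this stage (ANS2, F3H, AOMT, F3'H and ANS3), against 0 without it. Deviations from the group means of libraries with numbers of the same series correlated at 0.18 at 300–400 mg and 0.60 at 400–500 mg, which rests on 2 pairs, and the block changed no other call of a member. From 100–200 mg to 200–300 mg, with CHS6 not counted, limma called 2 of 6, both models of CHS8, beside 12.4% of all gene models called lower. Without the filter neither of them passed in limma (adjusted p = 0.0561 for CHS8 and 0.0535 for its second model). The first model of CHS8 also lost its call in some fits that left out 1 library, as given above, and its second model lost it without R111. The values that changed sign all came from leaving out 1 library or pair: without R156, 0.02 for CHS2 and 0.01 for Glyma08g11530 at 300–400 mg; without R155, -0.21 for Glyma08g11530 and -0.36 for Glyma08g11620 at 400–500 mg; without the pair R154 and R156, 0.11 for CHS2 and 0.03 for Glyma08g11530 over the pairs. With all gene models of a locus summed, CHS8 counts its reads for both models, and the median shares were 42.2% for CHS7 and 54.7% for CHS8. With reads in place of RPKM they were 55.1% for CHS7 and 40.5% for CHS8. Of 504 values of single members under an alternative, 485 kept their direction and their side of the threshold. Part of this count was fixed in advance, because some alternatives left out only libraries that do not enter the value. The change of CHS7 from 100–200 mg to 200–300 mg, for example, was -1.69 whichever library was left out. The count is therefore no measure of stability. Stages with 1 library per line have no replicate of their own, and the cause of the differences between libraries of 1 line and stage was not tested.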
